A study of Mus musculus with 16 samples.

Results

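The maturation of the unlesioned neocortex after neonatal brain hemisuction (NBH) was followed by a direct comparison of the pools sampled 1 week and 4 weeks after the lesion, which the labels title NBI 1W and NBI 4W. The pools were chosen by those titles. They account for 2 of the 8 RNA pools and 4 of the 16 arrays of the series, 1 array in Cy3 and 1 in Cy5 for each pool. In NBH, the left sensorimotor cortex of C57BL/6J mice was removed by suction on postnatal day 7 (P7), and the right neocortex rostral to the bregma was taken on P14 for the 1 week pool and on P35 for the 4 weeks pool. Pools of untreated control mice of the same ages, P14 and P35, are given beside them. Per the methods, 4 male mice were used for each of the control, NBH and ABH (adult brain hemisuction) groups and RNA was pooled; how many mice entered each single pool is not given in the sources used here. All arrays are Agilent mouse whole genome arrays on which each RNA was hybridized alone, without a second sample in the other channel.

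Between P14 and P35 a mouse cortex passes from its last phase of growth to a largely adult state. Young neurons finish extending axons and shut down growth-associated genes, dividing precursor cells become rare, oligodendrocyte precursors turn into myelinating cells, fast-spiking parvalbumin interneurons mature, and a lattice of proteoglycans, the perineuronal net, forms around them. In rodents a unilateral lesion made in the first postnatal weeks is known to be followed by rewiring from the spared hemisphere, and the same lesion later in life leads to far less of it.

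Each value below is the normalised log2 signal, that is, the log2 of the background-corrected intensity of a probe minus the 75th percentile of its array. Differences were taken within each dye and are given as their mean, with the SD of the 2 dyes where an error is stated. Both arrays of a pool read the same RNA, which makes that SD technical, no p-value can be given, and age, time after the lesion and chance differences between 2 sets of animals cannot be told apart. A gene was called higher or lower at 4 weeks when the difference reached 1.5-fold in both dyes. On the 4 NBH arrays 65.4% to 67.9% of gene spots were well above background, and all 12 pan-neuronal and 26 of 26 cortical layer genes were well above background on every one of them. The controls were hybridized in the first row of each chip and the operated pools in the second, so chip row and operation cannot be told apart.

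Of 15617 genes compared, 424 were called higher at 4 weeks than at 1 week, or 2.71%, and 880 were called lower, or 5.63%. The median gene differed by -0.06 on the log2 scale, with an interquartile range from -0.27 to 0.16. Large differences were few: 188 of the higher and 445 of the lower genes reached 2-fold on average, 18 and 31 reached 4-fold, and 2 and 3 reached 8-fold. The excess of lower genes was largest among dim probes. When the genes were ranked by signal, 150 of the 3905 dimmest were called higher and 471 lower, whereas of the 3904 brightest 62 were higher and 67 lower. The SD of the difference between dyes was 0.58 in the dimmest and 0.24 in the brightest. When the deposited values were compared without scaling, the median gene moved to 0.07 and the calls split into 653 higher and 639 lower, so the lower share of 67.5% became 49.5%. Of 11 housekeeping genes compared, Rplp0 was called lower (-0.69), and Gapdh differed by 0.19.

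The same comparison in control mice gave 554 higher genes (3.56% of 15543) and 670 lower genes (4.31%). Over the 15246 genes measured in both, the NBH and the control differences correlated with r = 0.77 across genes, which are not independent replicates and which share probes and array design in both comparisons. Pairing the Cy3 difference of one with the Cy5 difference of the other gave 0.69 and 0.67. In both, 294 genes were called higher, which is 70.7% of the 416 NBH genes and 53.9% of the 545 control genes among those measured in both. For lower genes the shared calls numbered 454, or 61.0% of 744 in NBH and 69.0% of 658 in control. Only 1 gene called higher in NBH was called lower in control, and only 4 of the lower genes were called higher there.

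**Figure D1:**
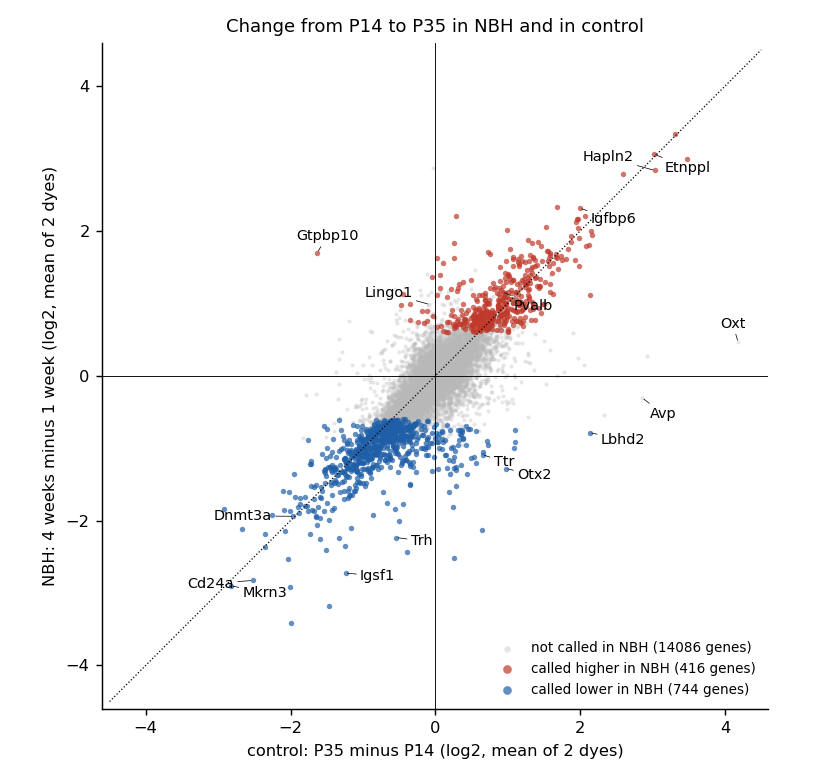
Change from P14 to P35 in control (x axis) against the change from 1 to 4 weeks in NBH (y axis) for 15246 genes, each in log2 units as the mean of 2 dyes. Red points are the 416 genes called higher and blue points the 744 called lower in NBH; most lie near the dotted line of equal change, while Oxt, Avp, Lbhd2, Ttr, Otx2 and Gtpbp10 lie far from it.

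The largest rise measured on all arrays was that of Etnppl, an enzyme that breaks down phosphoethanolamine in astrocytes. Its signal was -2.45 (Cy3) and -2.11 (Cy5) at 1 week and 0.75 and 0.81 at 4 weeks, a difference of 3.06 ± 0.20 (SD of the 2 dyes), or 8.35-fold. Both arrays of the later pool were far above both of the earlier one, and the control pair differed by 3.02. Serpinb1a, an inhibitor of serine proteases, went from -2.45 and -2.81 to 0.35 and 0.38, a difference of 3.0 ± 0.28 (control 3.48). Hapln2, a link protein of the nodes of Ranvier on myelinated axons, went from -4.59 and -5.06 to -1.89 and -2.09, a difference of 2.84 ± 0.19 (control 3.03). For all 3 genes the spread between dyes was a small part of the difference.

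Klk6, a secreted protease of oligodendrocytes, was at -4.58 and -4.65 at 1 week, where it was well above background on 1 of 2 arrays, and at -1.49 and -1.06 at 4 weeks. On these signals, dim at 1 week, it was 10.1-fold higher at 4 weeks. It was 3.31 higher on the log2 scale in control P35 than in control P14. It was chosen after its values were seen, since the rule for named genes requires signal on all arrays. Next in size came Igfbp6, which binds insulin-like growth factor II, from 2.19 and 2.17 to 4.57 and 4.42, a difference of 2.31 ± 0.09. Hapln4, a link protein of perineuronal nets, followed at 2.20 ± 0.52, with a wide gap between dyes at 1 week (-1.57 and -2.50). The other genes among the 15 largest were LOC547349, the proton channel gene Otop2, the synaptic organizer Cbln4, Mei1, Syt10, the Wnt ligand Wnt10a, the hyaluronan-binding Tnfaip6, Slc51b, the sphingolipid enzyme Degs2 and Anxa11, with differences from 1.84 to 2.17. Of these, Syt10 was the least certain (SD 1.69 between dyes), and second probes of LOC547349 and Anxa11 differed by -0.19 and 0.60. All 15 were also called higher in control.

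Mkrn3, an imprinted gene known as a brake on the onset of puberty, was the most strongly lower gene measured on all arrays. Its signal was -0.01 and 0.21 at 1 week and -2.94 and -2.67 at 4 weeks, a difference of -2.90 ± 0.03, or 7.48-fold lower. Cd24a, a surface glycoprotein of young neurons, followed, from 2.21 and 2.38 to -0.55 and -0.52, a difference of -2.83 ± 0.09. In control these genes differed by -2.82 and -2.52, so the 2 conditions lay close together. Among the 15 largest were also the adhesion receptor Cxadr (-2.37), Calca, which encodes calcitonin gene-related peptide (-2.19), the apelin receptor Aplnr (-2.18), the actin regulator Marcksl1 (-2.15), Fam227b (-2.12), the growth cone protein Dpysl3 (-2.06), the retinoic acid binding protein Crabp1 (-1.99) and the endothelial tip cell gene Esm1 (-1.96). These 8 were called lower in control as well.

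The remaining 5 of the 15 lower genes, Igsf1, Zar1, Trh, Arhgap36 and Stac, lay below their control differences by the limit in both dyes. Igsf1, an immunoglobulin superfamily gene, went from 0.69 and 1.20 to -1.85 and -1.70, a difference of -2.72 against -1.24 in control, while a second probe differed by -1.31 in NBH. Trh, the precursor of thyrotropin-releasing hormone, differed by -2.24 against -0.54, Zar1 by -2.35 against -1.25, Stac by -2.0 against -0.51, and Arhgap36 by -2.13 against 0.65. Several dim genes fell below background at 4 weeks. Casr, the calcium-sensing receptor, was at least 10.6-fold lower, while Retnla read 9.04-fold and the ion channel Trpa1 7.56-fold lower. The chemokine Cxcl10, still above background on 1 of 2 arrays at 4 weeks, read 9.20-fold lower, with its dim signal taken as measured. Casr rests on an unusually low background limit of the Cy3 array (-7.38, against -5.00 for the 1st percentile of values above background). These 4 genes were chosen after their values were seen.

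**Figure D2:**
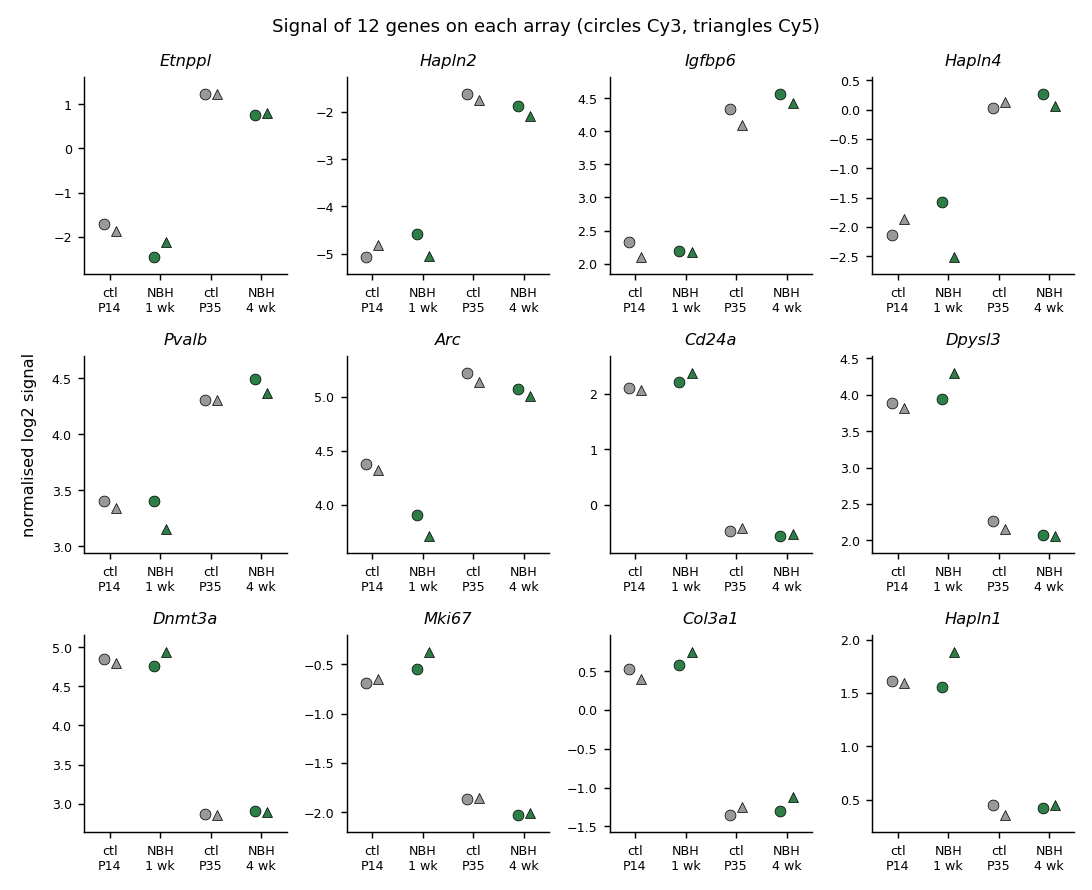
Normalised log2 signal (y axis) of 12 genes on each array of control P14, NBH 1 week, control P35 and NBH 4 weeks; grey symbols are control and green symbols NBH, circles Cy3 and triangles Cy5. In every panel the 4 arrays at P14 lie on one side and the 4 at P35 on the other, and each NBH pool lies nearer to the control pool of its own age than to that of the other age.

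Genes listed for young neurons and growing axons, which include the radial glia gene Fabp7, formed one of the most uniformly lower lists. Of 25 members compared, 12 were called lower and 0 higher, against 5.63% and 2.71% of all genes, the shares to set beside every list count below. The median difference was -0.76, against -0.06 over all genes. In bulk tissue fewer cells of a type and less RNA per cell cannot be told apart. Besides Cd24a, Marcksl1 and Dpysl3, these were Nrep (-1.37), Dpysl5 (-1.33), the radial glia lipid-binding protein Fabp7 (-1.33), the tubulins Tubb2b (-1.32) and Tubb3 (-0.72), Igfbpl1 (-1.26), Dcx (-1.14), Draxin (a bound of -1.02) and Crmp1 (-0.92). Dcx encodes doublecortin, the microtubule protein of migrating neurons, and went from 1.08 and 0.93 to -0.13 and -0.13, with no overlap between the pools. Igfbpl1 alone differed from its control change by the limit in both dyes (-1.26 against -0.30). Gap43, the growth cone protein, differed by -0.62 and was not called, with 2 of its 4 arrays saturated. Saturation also left the tubulins Tubb5, Tuba1a and Tubb2a and the stathmins Stmn1 and Stmn3 without a value. In control 11 of 24 members were called lower, with a median of -0.55.

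Among the 46 axon guidance ligands and receptors, 5 were called lower and 0 higher, against 5.63% and 2.71% of all genes. Their median was -0.30 (control 6 lower, median -0.20). Called were Sema6a (-1.14), the receptors Robo2 (-0.86) and Robo1 (-0.81), the netrin receptor Unc5d (-1.0) and Sema3d (-0.90). Unc5d was above background on 1 of 2 arrays at 4 weeks. Sema6a, a transmembrane semaphorin, went from 1.30 and 1.09 to 0.11 and 0.01. In control Sema3d was 0.72 higher on average, from -4.18 and -3.95 to -2.91 and -3.79, and was not called. Outside these 5, differences ran from -0.70 for Plxnd1 to 0.46 for Cntn4. Of 14 neurofilament and axonal cytoskeleton genes 1 was called, the peripherin gene Prph (-1.15), and the heavy and medium neurofilament genes Nefh and Nefm differed by -0.08 and -0.20.

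Cell cycle genes showed the second lowest median of all 42 lists, -0.90. Of 23 members compared, 14 were called lower and 1 higher, against 12 and 0 in control with a median of -0.73. Mki67, a marker of dividing cells, went from -0.55 and -0.37 to -2.02 and -2.0, a difference of -1.55 ± 0.11. Cyclin-dependent kinase 1, Cdk1, which drives entry into mitosis, went from -2.81 and -2.45 to -5.06 and -5.26. It read 5.79-fold lower, an estimate from dim signal with 1 of 2 arrays above background at 4 weeks. Also called lower were the cyclins Ccnb1 (-1.61), Ccna2 (-1.01) and Ccnb2 (-0.78), Nusap1 (-1.27), Birc5 (-1.23), Cdca8 (-0.90), Ube2c (-1.0), Hmgb2 (-1.08), the nucleotide reductase subunit Rrm2 (-1.35) and the replication helicase subunit Mcm6 (-0.90). Topoisomerase Top2a (-1.60) and the spindle motor Kif11 (-1.26) were called lower too, though neither was above background on all 4 arrays. The other helicase subunits Mcm2, Mcm3, Mcm4, Mcm5 and Mcm7 differed by -0.58 to -0.01 and were not called. Ccnd1, a G1 cyclin also made by cells that do not divide, was the 1 member called higher (0.76, from 1.77 and 1.69 to 2.49 and 2.49).

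Genes of the late cell cycle often carry a pair of short elements near their start, the cell cycle genes homology region (CHR, TTTGAA) and the CCAAT box. RefSeq promoter windows of 300 bases, 250 before and 50 after the start (GRCm38.p6), matched 13 of the 14 lower genes. Both motifs, searched on both strands (TTTGAA or TTCAAA, and CCAAT or ATTGG, which can share an end letter), occurred in 8 of the 13, or 61.5%. Among all compared genes with a window they occurred together in 751 of 12389, or 6.06%, and in 1 of 6 cell cycle genes that were compared and not called lower. Taken singly, the CHR was found in 61.5% of the 13 and 14.9% of all, and the CCAAT box in 84.6% and 42.5%. The cAMP response element TGACGTCA, searched in the same way, was in 0 of the 13 and in 3.15% of all. A match is a run of letters and not a shown binding site. The windows of 4 of the 8 are printed as examples with a CHR close to the start (base 251 of each line), and were chosen for it; capitals mark the CHR and the CCAAT box, and all lines read 5′ to 3′ along the gene. Cdk1 lies on the minus strand at chr10:69352863-69353162, Ccnb2 on the minus strand at chr9:70421505-70421804, Top2a on the minus strand at chr11:99024140-99024439, and Kif11 on the plus strand at chr19:37376132-37376431.
Cdk1: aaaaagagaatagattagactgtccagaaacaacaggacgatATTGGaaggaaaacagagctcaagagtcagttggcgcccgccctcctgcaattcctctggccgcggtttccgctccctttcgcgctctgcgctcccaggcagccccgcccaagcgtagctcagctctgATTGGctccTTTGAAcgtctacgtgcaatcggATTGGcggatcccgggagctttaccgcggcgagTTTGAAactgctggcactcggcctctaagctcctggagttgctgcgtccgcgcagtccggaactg
Ccnb2: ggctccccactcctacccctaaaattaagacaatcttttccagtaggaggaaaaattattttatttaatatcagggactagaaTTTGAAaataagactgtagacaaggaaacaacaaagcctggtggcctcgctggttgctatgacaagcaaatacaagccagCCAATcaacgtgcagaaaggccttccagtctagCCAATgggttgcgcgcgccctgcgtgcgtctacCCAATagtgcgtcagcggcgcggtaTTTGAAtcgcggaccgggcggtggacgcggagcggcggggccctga
Top2a: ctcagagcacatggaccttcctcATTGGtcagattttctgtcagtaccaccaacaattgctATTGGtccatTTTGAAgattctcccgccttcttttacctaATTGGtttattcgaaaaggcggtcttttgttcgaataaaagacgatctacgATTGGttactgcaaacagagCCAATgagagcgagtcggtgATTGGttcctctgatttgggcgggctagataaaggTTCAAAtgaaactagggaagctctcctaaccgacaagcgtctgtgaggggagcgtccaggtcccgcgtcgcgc
Kif11: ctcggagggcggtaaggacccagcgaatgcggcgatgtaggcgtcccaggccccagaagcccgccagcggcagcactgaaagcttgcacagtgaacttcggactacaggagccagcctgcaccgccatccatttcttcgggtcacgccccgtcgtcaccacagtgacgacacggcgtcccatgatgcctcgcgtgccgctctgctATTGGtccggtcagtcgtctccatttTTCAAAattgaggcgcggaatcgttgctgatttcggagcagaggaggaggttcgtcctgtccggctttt

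The last CHR before the start began 15 bases upstream of it in Cdk1, 23 in Top2a and 19 in Kif11, while in Ccnb2 the nearest one began 4 bases after it. In Mki67, another of the 8, it began 98 bases upstream. Birc5 and Nusap1, which were lower by like amounts (-1.23 and -1.27), held neither motif in these windows.

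Matrix and vessel genes followed different courses. Collagens and fibroblast matrix genes had the lowest median of all lists, -0.92, with 13 of 20 called lower and 0 higher, as in control (13 of 20, median -0.86). Col3a1, a fibrillar collagen, went from 0.57 and 0.75 to -1.30 and -1.13, a difference of -1.87 in both dyes, and the matrix protein genes Postn, Col1a1 and Col5a2 differed by -1.69, -1.37 and -1.95, the last with 1 of 2 arrays above background at 4 weeks. The basement membrane collagens Col4a1 and Col4a2 (-0.93 and -0.88) and fibronectin, Fn1 (-0.98), were lower too. Leptomeningeal genes, many of whose cells also make collagens, gave 1 lower call of 14 (Ccn3, -1.08) and a median of 0.31. Their summed linear level was 70.4 and 68.3 at 1 week and 77.8 and 68.4 at 4 weeks, most of it from Ptgds. Without Ptgds the sum was 16.6 and 16.8 at 1 week and 18.6 and 19.5 at 4 weeks. In control it was 17.0 and 16.9 at P14 and 18.3 and 18.6 at P35. Of 22 endothelial genes, Esm1, the lipid transporter gene Mfsd2a (-0.95) and the angiopoietin gene Angpt2 (-0.69) were called lower and Slco1a4 (0.79) and Ly6c1 (0.71) higher. Angpt2 was lower by less than in control (-1.54), past the limit in both dyes.

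Oligodendrocyte genes divided by stage. Of 18 precursor and newly formed oligodendrocyte genes, 6 were called lower and 0 higher (median -0.43, control -0.44), led by the receptor Gpr17, which marks cells about to myelinate. Gpr17 went from 4.83 and 5.19 to 3.74 and 3.66, a difference of -1.31 ± 0.31, and Enpp6, Bmp4, Itpr2, Lhfpl3 and the growth factor receptor Pdgfra differed by -1.29, -0.88, -0.83, -0.70 and -0.65, with a second Enpp6 probe at -0.36. Olig1 and Olig2, the lineage transcription factors, differed by -0.10 and -0.04. Myelin and mature oligodendrocyte genes had a median of 0.32 over 26 members, with 8 called higher and 3 lower. Higher were Hapln2, Plekhb1 (1.34), aspartoacylase, Aspa (1.29), Apod (0.96), Evi2a (0.82), Ppp1r14a (0.77), Gpr37 (0.76) and Nkx6-2 (0.61).

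Lower were Mobp (-1.02), a component of compact myelin, and Ugt8a (-0.83) and Gal3st1 (-0.74), which make the galactolipids of the myelin sheath. Mobp went from 4.93 and 5.13 to 4.00 and 4.00, although another of its 3 probes differed by only -0.13. In control 12 of 27 members were called higher and 0 lower, and these 3 genes differed by -0.54, -0.45 and -0.46, in the same direction and short of the limit. No member differed from its control change by the limit in both dyes. Still, the median over 27 members of the NBH change minus the control change was -0.29. The list medians, 0.32 in NBH and 0.28 in control, do not show this. The structural genes Mbp, Mog and Mag differed by 0.43, 0.21 and -0.53 and were not called, and Myrf was above background on 1 of 2 arrays of each pool. Cholesterol synthesis genes, which supply myelin, had a median of -0.45, with 3 of 20 called lower, among them Sqle (-0.77) and Mvk (-0.75). Every one of the 20 members had a mean difference below 0.

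**Figure D3:**
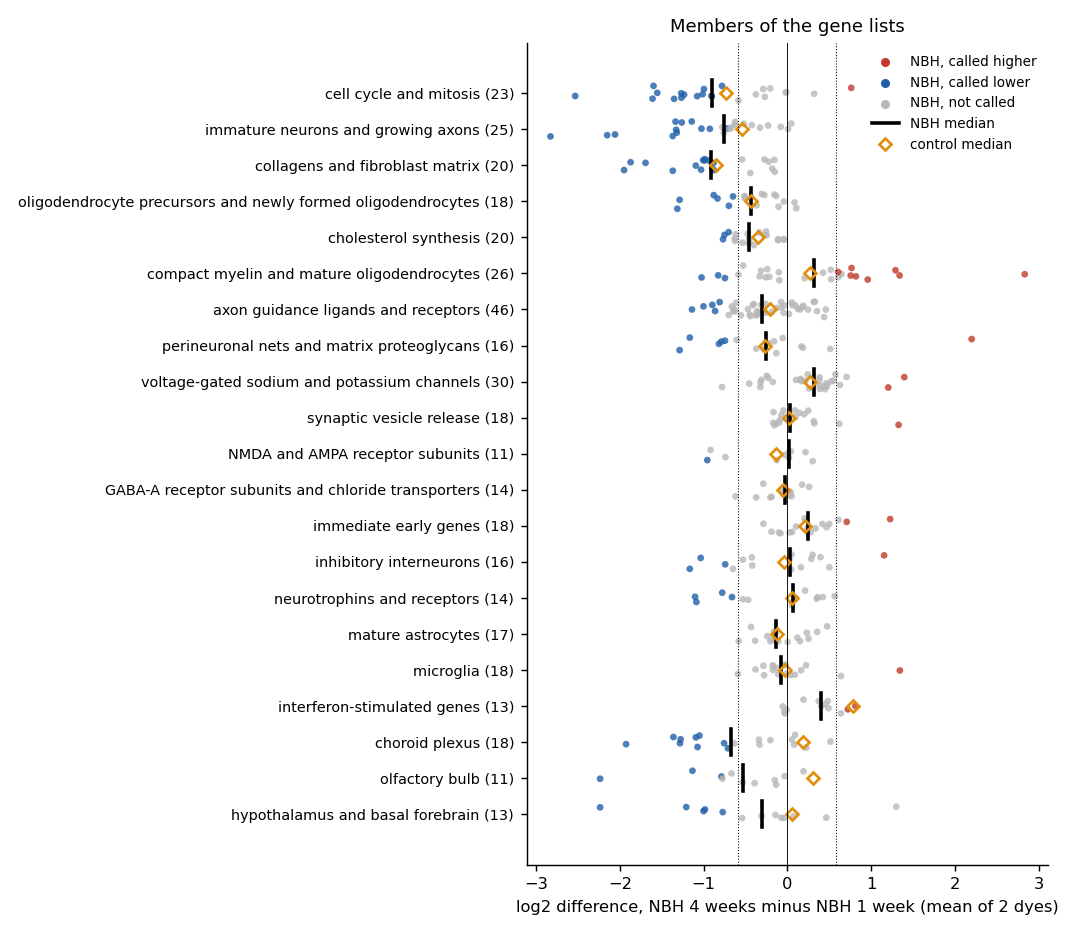
Log2 difference between NBH 4 weeks and NBH 1 week (x axis, mean of 2 dyes) for each compared member of 21 gene lists, with the number compared in parentheses. Red and blue points were called higher and lower, black bars are NBH medians, orange diamonds control medians and dotted lines the 1.5-fold limits; bar and diamond nearly coincide in most lists and are apart in choroid plexus (-0.67 and 0.18), olfactory bulb (-0.53 and 0.30), hypothalamus and basal forebrain (-0.31 and 0.05) and interferon-stimulated genes (0.41 and 0.78).

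Receptor subunits at the synapse gave few calls. Of 14 GABA-A receptor and chloride transporter genes 0 were called, 0 of 18 postsynaptic scaffold genes were called, and among 11 NMDA and AMPA receptor subunits Grin3a alone was called lower (-0.95). The medians of these lists were -0.02, -0.01 and 0.02, with signs that changed under other processing. Grin2b and Grin2a, the juvenile and the mature NMDA subunit, differed by 0.02 and 0.22, and the chloride extruder Slc12a5 by 0.05. Of the 12 kainate and metabotropic glutamate receptors Grik1 was called lower (-0.73). Of 18 vesicle release genes Vamp1, the synaptobrevin of fast-spiking terminals, was called higher, from 1.99 and 1.69 to 3.17 and 3.17 (1.33 ± 0.21). In 6 further vesicle genes, Syn1, Syp, Syt1, Sv2c, Cplx2 and Rab3a, no comparison could be made.

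The median over 30 voltage-gated sodium and potassium channel genes was 0.32 (control 0.27), with 2 called higher and 0 lower. Kcnab3, an auxiliary subunit of potassium channels, went from 0.58 and 0.61 to 2.09 and 1.89 (1.40 ± 0.16). Kcnc1, a fast-spiking potassium channel, differed by 0.58 in NBH and by 1.37 in control, and the gap passed the limit in both dyes, with its 3 probes between 0.22 and 0.72 in NBH. Pvalb, the calcium-binding protein of fast-spiking interneurons, went from 3.40 and 3.15 to 4.49 and 4.37, a difference of 1.16 ± 0.09 (control 0.93). It was the 1 higher gene among 16 interneuron genes. Calb2 (-1.16), Nos1 (-1.03) and Cort (-0.74) were called lower, and of these Calb2 and Nos1 differed by 0.18 and 0.27 in control.

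The perineuronal net genes split by member. The link protein Hapln4 was called higher and Hapln1 lower, the latter from 1.56 and 1.89 to 0.42 and 0.45 (-1.29 ± 0.21, control -1.20). Neurocan, Ncan (-0.79), the proteases Adamts4 (-0.82) and Adamts15 (-0.74) and the hyaluronan synthase Has2 (-1.16) were also lower. Has2 was above background on 1 of 2 arrays at 4 weeks. Aggrecan, Acan, differed by -0.05, brevican, Bcan, by 0.51, and versican, Vcan, by 0.17. Among 14 genes listed as limits on plasticity, only Otx2 was called (-1.28). The Nogo receptor partner Lingo1 went from 0.76 and 0.50 to 1.27 and 1.96, a difference of 0.51 in Cy3 and 1.46 in Cy5 that missed the limit in one dye, while control differed by -0.08. The Nogo genes Rtn4 and Rtn4r differed by 0.31 and 0.19.

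Immediate early genes had a median of 0.25 over 18 members, with Arc and Fosb called higher. Arc, which regulates glutamate receptors at active synapses, went from 3.91 and 3.71 to 5.07 and 5.01 (1.23 ± 0.09, control 0.83), and Fosb differed by 0.71 (control 0.25). Egr2 differed by 0.75 in Cy3 and 0.47 in Cy5 while control differed by -0.14, a gap past the limit in both dyes. Fos and Bdnf differed by 0.21 and 0.36. Of 14 neurotrophin genes 4 were called lower, among them the receptors Ret (-1.09) and Ngfr (-0.78) and the ligand Ntf3 (-0.66). In control Ngfr differed by 0.36.

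Dnmt3a, the methyltransferase that sets new DNA methylation in young neurons, went from 4.75 and 4.94 to 2.91 and 2.89, a difference of -1.94 ± 0.15 and 3.84-fold lower (control -1.96). With Uhrf1 (-1.20) and Ezh2 (-0.77) it made up the 3 of 12 chromatin genes called lower. Igf1 went from 0.00 and 0.51 to -1.06 and -1.02 (-1.29 ± 0.33), Igf2 differed by -0.68, and the imprinted Grb10 by -1.0. Among cortical layer genes Crym (-1.05), Ntsr1 (-0.90) and Cntn6 (-0.84), all of deep layers, were called lower out of 25. Mature astrocyte genes gave 0 calls out of 17. Of 18 microglia genes Olfml3 was called higher (1.34, with a second probe at 0.04), and Gfap and Cx3cr1 differed by -0.32 and -0.17.

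Of 13 interferon-stimulated genes 2 were called higher in NBH, Ifit3 (0.81) and Irf7 (0.72), against 7 in control, and the medians were 0.41 and 0.78. Of these genes only Ifit1 differed between the 2 changes by the limit in both dyes, and its NBH value was uncertain, with -0.88 in Cy3 and 0.86 in Cy5. The class I gene H2-T23 was called higher in both (1.36 and 1.39). Of reactive astrocyte genes Cxcl10 and Lcn2 (-0.80) were called lower and Cp (0.88) higher, and Lcn2 differed by 0.01 in control. Cd44 differed by 0.54 in NBH and -0.52 in control, although its 2 probes disagreed (-1.22 and 0.54). Lpl was the 1 of 10 phagocyte genes called (-1.08), and it was called lower in control as well (-0.95). In 3 of the 10 the NBH change lay below the control change by the limit in both dyes, and in 0 above it. Over all genes these shares were 1.77% and 0.672%. Lgals3 was among the 3 (-0.59 against 0.14). C4b did so too (-0.54 against 0.39), as the 1 of 18 complement and class I genes. The lists not yet described gave at most 1 call each: the clock gene Bhlhe40 was higher (0.81, 1 of 16), and the pericyte gene Abcc9 (-0.69, 1 of 12), the ependymal list's Mia (-0.94, 1 of 10) and the striatal adenosine receptor Adora2a (-0.70, 1 of 15) were lower. None of 9 blood genes and none of 3 sex-linked genes were called. Their medians were 0.11, -0.30, 0.03, -0.19, 0.22 and -0.27. In control these were 0.05, -0.18, 0.35, 0.10, 0.02 and -0.51. The NBH change lay below the control change by the limit in 2 of 10 ependymal, 1 of 15 striatal and 1 of 9 blood genes, and above it in 0. The summed linear level of the striatal list was 162 and 167 at 1 week and 143 and 145 at 4 weeks in NBH. In control it was 212 and 196 at P14 and 211 and 189 at P35. The part of these tissues was not tested.

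To see where these genes stand in a longer course, control P7 and control 10 weeks were compared, pools that share no array with the NBH pools. Of 16211 genes 21.4% were called higher and 16.7% lower at 10 weeks. Of the genes called higher in NBH, 377 of 418 (90.2%) were called higher there and 0 lower, with a median of 1.88. Among the lower genes 565 of 810 (69.8%) were called lower and 35 (4.32%) higher, with a median of -1.34. By list, 25 of 28 myelin genes were called higher from P7 to 10 weeks, and 19 immature neuron, 20 cell cycle and 14 cholesterol genes lower. Mobp and Ugt8a, lower from 1 to 4 weeks, were 3.82 and 2.12 higher at 10 weeks than at P7, and their control levels were highest at P14 (4.96 and 2.10, against 3.24 and 0.74 at 10 weeks).

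**Figure D4:**
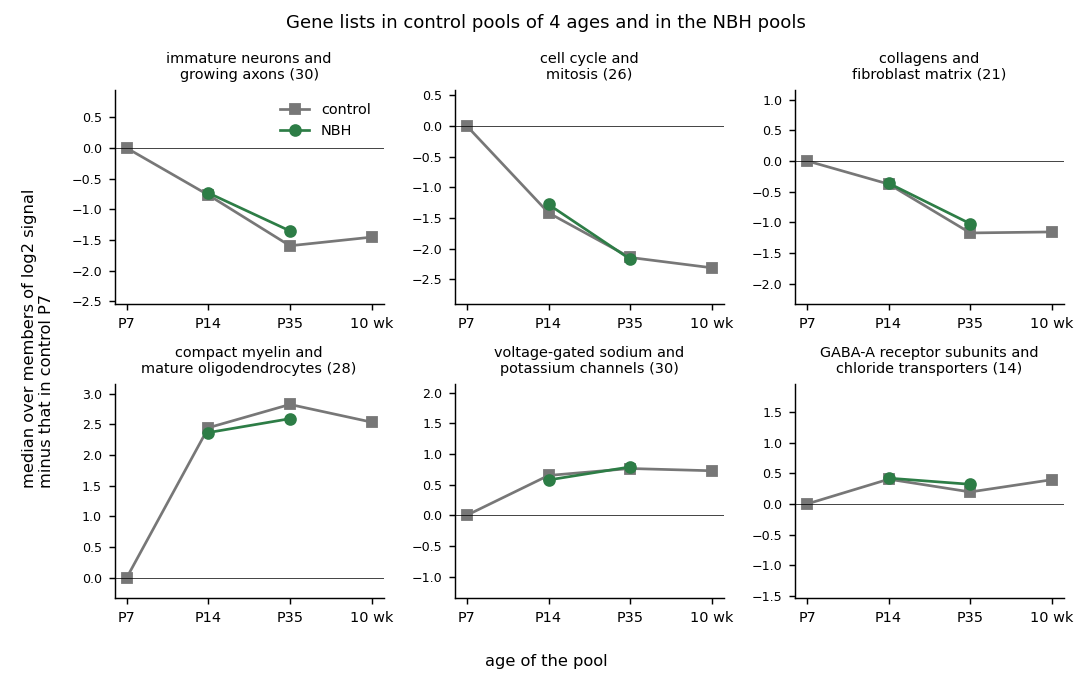
Median over list members of the normalised log2 signal minus that in control P7 (y axis) in control pools of P7, P14, P35 and 10 weeks (grey squares) and in NBH 1 week and 4 weeks (green circles, at P14 and P35). All members on the array enter with measured signals, their number in parentheses; myelin stands at 2.37 and 2.59 in NBH and 2.44 and 2.82 in control, and cell cycle at -1.28 and -2.17 in NBH and -1.41 and -2.14 in control.

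The pools of adult brain hemisuction (ABH), in which a larger area that includes the sensorimotor cortex was removed in adult mice, also span 1 to 4 weeks after a lesion, at ages of 11 and 15 weeks. From 1 to 4 weeks 6.77% of 16007 genes were called higher in ABH and 4.64% lower. Of the NBH-higher genes 35 of 420 (8.33%) were called higher and 24 (5.71%) lower, and of the NBH-lower genes 133 of 751 (17.7%) were called lower and 48 (6.39%) higher, and the differences correlated with r = 0.11 across 15345 genes. The cell cycle and collagen lists were lower in both, with 16 cell cycle genes and all 21 collagen genes compared called lower in ABH. Mki67 differed by -2.35 and Col3a1 by -4.77 in ABH, against -1.55 and -1.87 in NBH. In ABH these began from higher levels, since the 1 week signal of Col3a1 was 2.94 there and 0.66 in NBH. In ABH 2 of 27 myelin genes were called higher and 0 lower, and of 24 immature neuron genes 0 were called higher and 3 lower. Cd24a, Igfbp6 and Etnppl differed by -0.93, 0.15 and 0.50 there.

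Against this shared course, the NBH change exceeded the control change by the limit in both dyes for 107 genes (0.672% of 15914) and lay below it by the limit for 281 (1.77%). The higher share of these calls was 27.6%, and it moved to 47.9% (175 and 190 genes) with quantile normalization and to 37.9% (133 and 218) with median scaling. The 2 dyes correlated weakly in this difference of differences (r = 0.17 across genes), and 167 genes passed the limit in opposite directions. Among genes well above background on all 8 arrays, the largest negative values were those of Oxt (-3.72), Lbhd2 (-2.92), Arhgap36 (-2.78), Dlk1 (-1.91), 1700024G13Rik (-1.79), Ttr (-1.75), Folr1 (-1.70) and Trh (-1.69). Oxt encodes oxytocin, a hormone of the hypothalamus. Its signal was -2.64 and -3.31 at 1 week and -2.47 and -2.54 at 4 weeks in NBH, and -2.75 and -2.65 at P14 and 1.57 and 1.39 at P35 in control. The NBH pools and control P14 lay together and the control P35 pool stood apart. The same held for vasopressin, Avp, at -1.65 and -1.80 in control P35 and between -4.62 and -3.96 on the other 6 arrays, and for Dlk1.

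Control P35 also differed in a marker of sex. Xist, transcribed from the inactive X chromosome of females, was well above background in control P35 (-3.68 and -3.17) and not in control P14 or the NBH pools. The Y-linked Eif2s3y differed by -1.08 between control P35 and control P14, while the Y-linked Uty and Ddx3y differed by -0.65 and -0.38 and were not called. The part of these features of the control P35 pool in the differences between the 2 changes was not tested. When control 10 weeks took the place of control P35, the counts became 90 and 923, and 25 and 178 genes were shared with those above.

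Ttr encodes transthyretin, the main secreted protein of the choroid plexus. Here the NBH pools stood apart: its signal was 5.06 and 5.03 at 1 week and 3.96 and 3.94 at 4 weeks in NBH, and -1.70 and -1.79 at P14 and -1.05 and -1.12 at P35 in control. The level was 2.13-fold lower at 4 weeks than at 1 week, and still far above both control pools. Of 18 choroid plexus genes 9 were called lower in NBH and 0 higher (median -0.67), among them the water channel Aqp1 (-1.92), Calml4 (-1.36), Otx2 (-1.28), the folate receptor Folr1 (-1.05, with a second probe at 0.14) and Clic6 (-0.75). In control 4 were called higher and 3 lower (median 0.18). The summed linear level of the list was 68.4 and 67.1 at 1 week and 50.7 and 49.0 at 4 weeks in NBH, against 26.9 to 30.6 in the 4 control arrays. Without Ttr, which fell from 33.3 and 32.7 to 15.6 and 15.4 on this linear scale, the sum was 35.1 and 34.4 at 1 week and 35.1 and 33.7 at 4 weeks in NBH, and 26.6 to 30.1 in control. In both NBH pools 17 to 19 of the 19 genes were above background, against 14 in control P14 and 16 or 17 in control P35. The median member stood at -2.42 and -2.02 at 1 week and -2.79 and -2.58 at 4 weeks in NBH. In control it stood at -3.14 and -3.13 at P14 and -3.24 and -3.47 at P35. The sums without Ttr therefore rest mainly on the brighter members and say little about dimmer ones such as Aqp1. The part of this tissue in the genes lower in NBH was not tested.

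Some olfactory bulb and hypothalamic genes were called lower at 4 weeks in NBH. Of 11 olfactory bulb genes 3 were called lower, Trh, Cdhr1 (-1.13) and Lbhd2 (-0.79), and in 6 of 12 the change lay below the control change by the limit, with medians of -0.53 in NBH and 0.30 in control. Of 13 hypothalamic and basal forebrain genes 5 were called lower, namely Trh, Baiap3 (-1.21), Magel2 (-1.0), Agrp (-0.98) and the acetylcholine transporter Slc18a3 (-0.77). Baiap3 was above background on 1 of 2 arrays at 4 weeks. Trh is on both lists, and the uncalled members ran up to 0.19 in the first list and 1.30 in the second. The summed levels were 26.9 and 35.3 (1 week) and 22.6 and 23.8 (4 weeks) for the olfactory bulb list, and 9.60 and 9.69 against 6.50 and 6.53 for the hypothalamic list. In control the olfactory bulb sums were 29.7 and 28.2 at P14 and 26.6 and 27.4 at P35. The hypothalamic sums there were 9.75 and 10.0 against 10.9 and 10.6. Synpr alone gave 12.8 and 18.9 of the olfactory bulb sums in NBH at 1 week. Without it they were 14.1 and 16.4 at 1 week and 12.5 and 12.3 at 4 weeks. Without Cartpt the hypothalamic sums in NBH were 5.58 and 5.88 against 3.82 and 3.81. The hormone genes Oxt and Avp were above background in both NBH pools. How far these tissues entered the pools, and their part in the lower genes, was not tested.

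**Figure D5:**
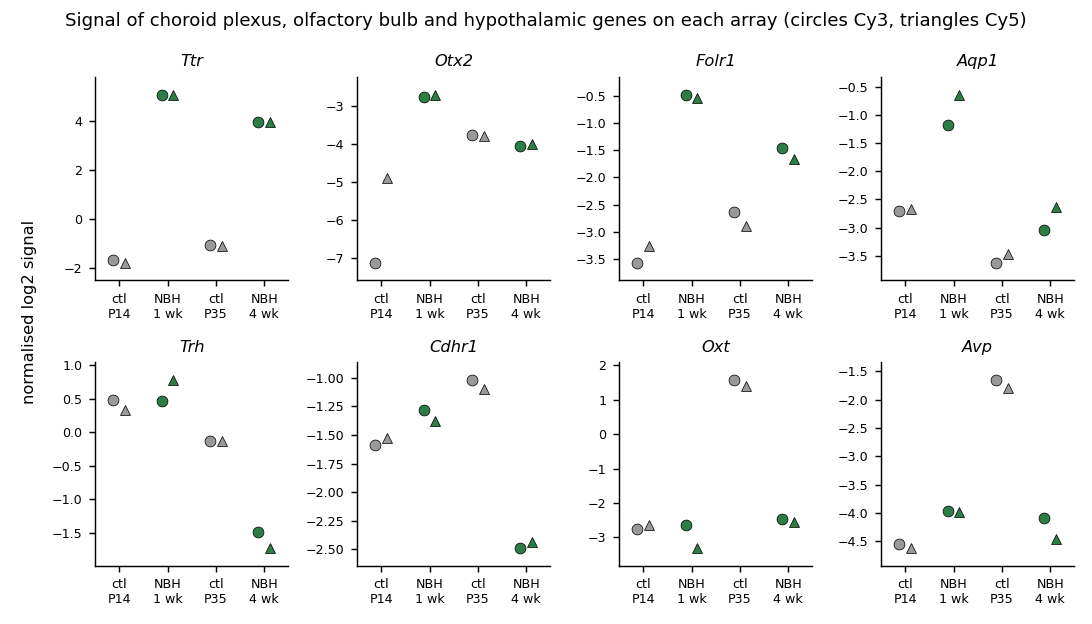
Normalised log2 signal (y axis) of 4 choroid plexus genes (upper row) and of 2 olfactory bulb and 2 hypothalamic genes (lower row) on each array; grey symbols are control and green symbols NBH, circles Cy3 and triangles Cy5. Ttr is near 5.06 at 1 week and 3.96 at 4 weeks in NBH and below 0 in control, whereas Oxt and Avp are high in control P35 only; Otx2 was not above background in control P14.

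In the other direction, again among genes well above background on all 8 arrays, the largest differences from the control change were those of Gtpbp10 (3.33), Gm3985 (1.84), Gucy1a2 (1.76), Ckap2 (1.47), Csk (1.41), Olfr843 (1.40), Obp1a (1.33) and Olfr870 (1.30). Gtpbp10, a GTP-binding protein gene, was called higher in NBH (from 0.49 and 0.30 to 2.11 and 2.08) and lower in control (from 2.73 and 1.77 to 0.74 and 0.50), while another probe for it differed by -0.68 in NBH. Gucy1a2 and Csk rested on a single low array, the Cy5 array of NBH 1 week, at -2.85 and -2.70 where the Cy3 array read -1.0 and -0.86, and a second Gucy1a2 probe differed by -0.29 in NBH. Of these 8 genes, Gtpbp10 and Obp1a were the only ones called in NBH itself.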

How the data were processed

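RNA of 8 pools was measured on 16 arrays. The deposited scanner tables hold spot intensity in arbitrary fluorescence units, read by the authors with Agilent Feature Extraction 11.0.1.1, per the file headers with the mm9 design of the array. The processed signal is background-subtracted and not dye-normalized. The deposited value table holds the same intensity of the labeled channel, unscaled, and served as an alternative.

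Here the processed signal of the labeled channel of gene spots was floored at 1 and put on the log2 scale. It was reduced by the 75th percentile of its array and then averaged over the spots of a probe, with outlier spots left out (Python 3.11.15, pandas 2.3.3). A gene was given by its probe of highest mean signal that was unsaturated on the NBH arrays, and entered when either pool had it well above background in both dyes. Signals below background were held at the lowest signal above background of their array, or their own if higher. A difference is a bound only where a signal was held, and an estimate from dim signal where its own value entered. The call step was tested on simulated data. Genes saturated on all 4 arrays have no value. Calls needed 1.5-fold in both dyes. No gene or list has a test, since each condition is 1 pool. The number of arrays limits the precision.

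Named genes were the 15 largest in each direction among genes above background and unsaturated on all 4 arrays, the 8 in each direction with the largest difference from the control change among genes past the limits and above background on all 8 arrays, up to 4 members of each of 42 lists with the largest difference, and 20 fixed genes. Some genes that this rule names are not reported here. Further list members are named by role or call and were chosen with values known. The members, lists and limits were chosen with earlier results of these data known.

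Alternatives were normexp on the median signal (limma 3.58.1, offset 50; the plan named the mean signal, but the tables used here hold the median), the value table, quantile and median scaling, other filters, limits and probes, and each dye alone. Holding dim values at the 1st percentile, and control 10 weeks in place of control P35, were chosen after seeing the data. Promoter windows are from RefSeq (GRCm38.p6) and were matched by symbol.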

Additional observations from a re-analysis of the deposited data

Results flagged for a closer look

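In 5 genes both dyes passed the limit upward in one condition and downward in the other, and the difference between the conditions was not tested, since each is 1 pool. Gtpbp10 was higher at 4 weeks in NBH and lower in control, with an NBH change minus control change of 3.33 on the log2 scale. The other 4 were lower in NBH and higher in control, namely Lbhd2 with -2.92, Otx2 with -2.26, Pkd2l1 with -2.01 and Ttr with -1.75. Otx2 was below background in control P14, and Pkd2l1 was above background on 1 of 2 arrays in both NBH 4 weeks and control P14, so these values rest on held or dim signals. Lbhd2 is on the olfactory bulb list, Otx2 and Ttr are on the choroid plexus list, and Otx2 also on the list of limits on plasticity. Groups of 2 arrays are too small for a check of single outlying arrays.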

How the results depend on the processing

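Counts below are genes higher and lower in NBH at 4 weeks (424 and 880 as reported), then genes whose NBH change lay above and below the control change (107 and 281). They were 275, 491, 30 and 72 with normexp on the median signal, 782, 1602, 422 and 1389 without the background filter, 152, 289, 26 and 88 at 2-fold, and 1057, 1917, 455 and 801 when all probes were counted. The unscaled value table gave 653 higher genes, quantile normalization 175 above the control change, signal above background on all arrays 45 and 131 above and below it, and the study's limits 1487 lower genes and 479 below the control change. Control 10 weeks in place of control P35 gave 923 below it. Either dye alone gave 826 to 1047 higher and 1238 to 1831 lower genes, and 576 to 613 above and 662 to 1089 below the control change. The other alternatives moved these counts by less than 1.5 times. The causes were not tested, except that 1 dye or all probes admit more calls and stricter limits fewer by construction. The sign of the median held under every alternative for 30 of 42 lists, and the 12 others had medians within 0.11 of 0. The number of lists with a median above 0 was 15, and 12 to 21 under the alternatives. Of 208 named genes with a value none changed the direction of a call, and 17 lost or 11 gained a call without scaling, against 20 and 1 with normexp and 44 and 0 at 2-fold. No paired analysis was possible because the replicate numbers only name the dyes, and every difference was already taken within a dye. The SD of the difference between dyes was 0.58 among the dimmest and 0.24 among the brightest genes.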
